A study of Homo sapiens with 9 samples.

Results

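The 10 genes described here encode proteins that bind actin filaments or drive their contraction: the tropomyosins TPM1, TPM2 and TPM4, transgelin (TAGLN) and transgelin 2 (TAGLN2), the myosin regulatory light chain MYL9, caldesmon (CALD1), the alpha-actinins ACTN1 and ACTN4, and calponin 2 (CNN2). They are 10 of the 78894 gene identifiers in each deposited file and were picked by name, with earlier results from all 4 groups of these libraries in view. Their levels and differences are therefore given as a description, with no p-value for any of the 10. RNA sequencing was done on CAL27, an established line of tongue squamous carcinoma cells, in a series whose title concerns an enhancer in such tumours of the head and neck. The groups are Control (3 samples) and the CRISPR knockouts A2ko, A8ko and C9ko (2 samples each), all in CAL27 cells grown alike in DMEM with serum and given no other treatment. The labels name neither the edited sequence nor whether a knockout is 1 clone or a pool, so no targeted gene could be checked, and they do not say that samples of a group came from separate cultures.

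The 2 files of A2ko hold identical values, as do the 2 files of A8ko, and each pair was counted as 1 library. This leaves 7 distinct libraries: 3 Control, 1 A2ko, 1 A8ko and 2 C9ko. Differences in A2ko and A8ko have no replicate check. Levels are in TPM, a library-wide share of transcripts that is corrected for transcript length, so levels of different genes can be compared. The unit is unrelated to the tropomyosin gene symbols TPM1 to TPM4.

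Actin filaments become contractile when bipolar filaments of non-muscle myosin II pull on them. Phosphorylation of the myosin regulatory light chain switches the motor on. Tropomyosins lie along the filament and set which myosins and other proteins can bind it, caldesmon and calponin restrain the motor, transgelins stabilise and bundle filaments, and alpha-actinins cross-link them and tie them to adhesions. Several of these genes are classical targets of serum response factor (SRF) with its actin-sensing cofactors MRTFA and MRTFB. In carcinoma cells of squamous epithelium, the set is commonly followed as a sign of stress fibres, migration and a partly mesenchymal state.

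Genes at 1 TPM or more numbered 15556 to 16716 per library, and mitochondrially encoded transcripts took 17.9% to 26.9% of each library's total. The median difference from Control over the 17100 tested genes came to 0.12 (log2) for A2ko, 0.09 for A8ko and 0.11 for C9ko. A change of a single gene is to be read against that shift, which median-of-ratios scaling removes. All 11 squamous epithelial markers looked up were tested, and their summed level was 16150 to 17221 TPM in Control, 6669 in A2ko and 7609 in A8ko, with 10566 and 10246 in C9ko. KRT5, KRT14, KRT6A and DSP were below all Control libraries in all 4 knockout libraries, whereas other markers of the list went the other way. In C9ko KRT8 was at 559 and 512 TPM against 218 to 250.5 in Control, KRT18 at 570 and 553 against 220 to 246, CDH1 at 170 and 177 against 100.3 to 106, and CDH3 at 255 and 249 against 140 to 148. KRT17 was at 1749 TPM in A2ko against 1031 to 1243 in Control, but lower in A8ko, at 489, and within the Control range in C9ko, at 1139 and 1049. Of the 7 smooth muscle markers, 5 stayed under 1 TPM in every library. Desmin (DES) was listed at 0 in all 7 libraries, CNN1 was at 0.157 TPM in A2ko and listed at 0 elsewhere, and MYH11 lay between 0.171 and 0.294 TPM. The smooth muscle sum was 2.35 to 2.69 TPM in Control, 3.37 in A2ko and 2.18 in A8ko, with 4.89 and 5.33 in C9ko, most of it ACTA2 and ACTG2. Fibroblast markers summed to 10.8 to 12.3 TPM in Control and 7.43 to 17.8 in the knockouts, with COL3A1 listed at 0 throughout and DCN at 0.148 TPM at most. Endothelial markers summed to 3.51 to 4.55 TPM in Control and 8.63 to 30.1 in the knockouts, nearly all of it CDH5, while KDR was listed at 0 in every library. Leukocyte markers summed to 42.3 to 50.4 TPM in Control and 59.4 to 82.8 in the knockouts, nearly all of it CD14 and CD68, with PTPRC at 0.0232 TPM at most. These 2 genes went opposite ways in C9ko, where CD14 was at 52.5 and 50.9 TPM against 14.2 to 17.9 in Control and CD68 at 14.1 and 14.3 against 27.8 to 32.2. The part of these sums in the results below was not tested, and in bulk RNA fewer cells of a type and less RNA per cell cannot be told apart.

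All 10 genes were expressed and passed the filter on low values, a level of at least 1 TPM in at least 2 libraries. Their summed level was 1609 to 1684 TPM in Control, 1734 in A2ko and 2045 in A8ko, with 2469 and 2502 in C9ko. In Control the order of mean levels was TAGLN2, CNN2, TPM4, ACTN4, TPM2, ACTN1, TPM1, CALD1, MYL9 and TAGLN, from 606.6 down to 7.04 TPM. The Control ranges of TPM4 and ACTN4 overlapped, and no other neighbours in that order did.

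**Figure D1:**
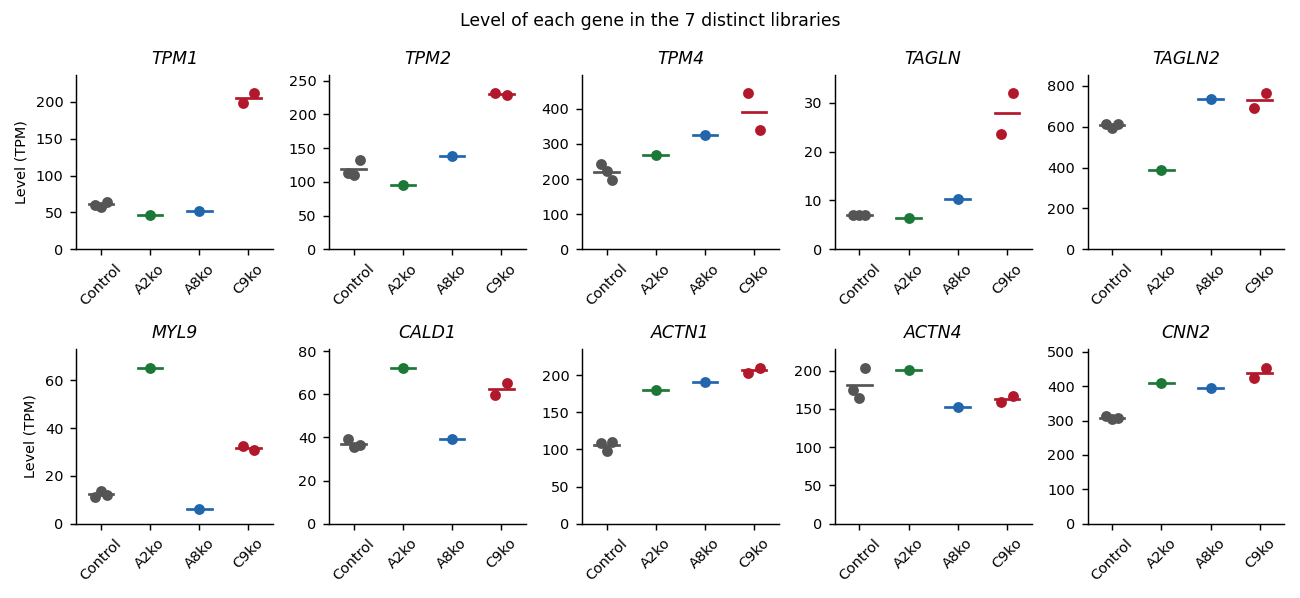
Level of each of the 10 genes in TPM, with 1 point per distinct library, a line at the group mean, and a vertical axis that starts at 0 and differs between genes. TPM1, TPM2 and TAGLN stand highest in C9ko, MYL9 and CALD1 in A2ko, and ACTN1 is near 200 in C9ko against 98.3 to 110 in Control.

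In C9ko, 9 of the 10 genes were higher than in every Control library and ACTN4 was not. TAGLN at 3.95-fold, TPM1 at 3.37-fold and MYL9 at 2.55-fold differed most. In A2ko the set was divided: MYL9 was 5.27-fold above the Control mean and CALD1 1.96-fold, while TPM1, TPM2, TAGLN and TAGLN2 lay below all Control libraries. In A8ko, ACTN1 was 1.82-fold above the Control mean and MYL9 was at 0.497 times it. TPM4, CALD1, ACTN1 and CNN2 were above every Control library in all 4 knockout libraries, and none of the 10 was below in all 4. For CALD1 in A8ko the margin was small, at 39.3 TPM against 39.1 in Control 1. It came within the Control range after median-of-ratios scaling or without mitochondrial genes.

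Against the background of all genes, limma called all 9 of the higher genes in C9ko at an adjusted p-value under 0.05, where 22.0% of the 17100 tested genes were called higher, 7.42% lower and 29.5% in either direction. After median-of-ratios scaling the calls over all genes were 2626 higher and 2187 lower, against 3770 and 1268 on the deposited scale, and 8 of the 10 genes were called. TAGLN2 was the one that dropped out. Without the second C9ko library, 3301 genes were called in place of 5038, with 8 of the 10 genes among them. Outside the Control range by any amount were 9 of 10 genes in A2ko (5 higher and 4 lower, against 76.7% of all tested genes, 50.4% higher and 26.3% lower), 10 in A8ko (7 higher and 3 lower, against 73.3%, 46.9% higher and 26.4% lower) and 9 in C9ko (all higher, against 57.5%, 41.1% higher and 16.4% lower). Outside it and at least 1 log2 unit from its mean were MYL9 in A2ko (1 of 10, against 5.07% of all tested genes, 3.54% higher and 1.53% lower), none in A8ko (0 of 10, against 4.73%, 2.05% higher and 2.68% lower), and TAGLN, TPM1 and MYL9 in C9ko (3 of 10, against 5.11%, 3.33% higher and 1.78% lower). The share of all tested genes with every knockout library above every Control library was 17.0%, and 4.61% were below in all. The median difference over the 10 genes was 0.22 log2 units in A2ko, 0.25 in A8ko and 0.88 in C9ko. Since the genes were chosen with these comparisons known, nothing is read from these counts.

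**Figure D2:**
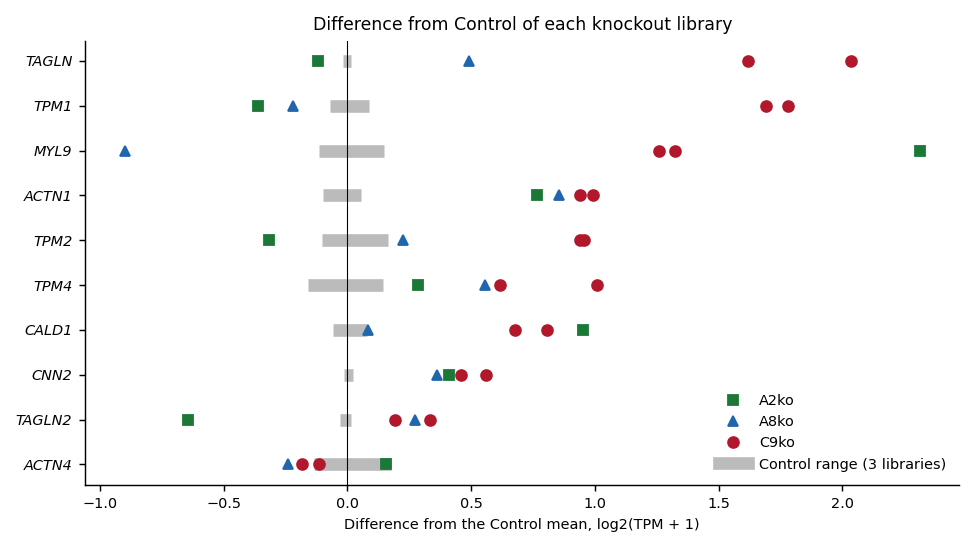
Difference of each knockout library from the Control mean on the log2(TPM + 1) scale for the 10 genes, with squares for A2ko, triangles for A8ko, circles for the 2 C9ko libraries and a grey bar for the range of the 3 Control libraries. C9ko lies to the right of the bar for 9 genes, and A2ko and A8ko lie on opposite sides for MYL9, TPM2, TAGLN and TAGLN2.

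The tropomyosins form coiled dimers that run along actin, and each gene makes several isoforms that gene-level values do not separate. TPM1 (ENSG00000140416, protein coding, chromosome 15, 63042632 to 63071915) measured 60.1, 58.0 and 64.8 TPM in Control, 47.1 in A2ko and 52.1 in A8ko, with 199 and 212 in C9ko. Both C9ko libraries were far above all others, and A2ko and A8ko were slightly below the lowest Control library. The C9ko difference was 1.74 log2 units (SE 0.07), that of A2ko -0.36 and that of A8ko -0.22.

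TPM2 (ENSG00000198467, protein coding, chromosome 9, 35681992 to 35690121) measured 114, 110 and 133 TPM in Control, 95.1 in A2ko and 139 in A8ko, with 231 and 229 in C9ko. The C9ko libraries were close to each other and clear of Control, with a difference of 0.95 log2 units (SE 0.09). A8ko exceeded the highest Control library by little, at 0.22, and came within the Control range after median-of-ratios scaling, at 0.12. A2ko was below Control, at -0.32.

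TPM4 (ENSG00000167460, protein coding, chromosome 19, 16067021 to 16103005), the most abundant tropomyosin gene of the 3, measured 243.5, 223 and 197.5 TPM in Control, 269 in A2ko and 324 in A8ko, with 444 and 339 in C9ko. Every knockout library was above Control. The C9ko libraries differed from each other by more than the Control libraries did, and their mean difference was 0.81 log2 units (SE 0.13). A2ko was at 0.29 and A8ko at 0.55.

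The fourth tropomyosin gene, TPM3, made it possible to follow the makeup of the class. The 4 genes summed to 655 to 732 TPM in Control, 673 in A2ko and 823 in A8ko, with 1153 and 1083 in C9ko. TPM1 took 8.89% ± 0.699 (SD, n = 3) of that sum in Control, 7.01% in A2ko and 6.33% in A8ko, with 17.2% and 19.6% in C9ko. TPM3 took 41.5% ± 1.41 (SD, n = 3) in Control and 24.2% and 28.1% in C9ko, its own level in C9ko being 279 and 304 TPM against 263 to 315 in Control. The TPM4 share was 40.1% in A2ko and 39.4% in A8ko against 29.3% to 34.1% in Control, whereas in C9ko it was 38.5% and 31.3%. These shares do not depend on how a library is scaled. The tropomyosin genes resemble one another in sequence, and how reads were divided among them is not given in the sources used here.

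Transgelin, also called SM22, is an actin-binding protein of the calponin family that is abundant in smooth muscle. TAGLN (ENSG00000149591, protein coding, chromosome 11, 117199321 to 117204782) measured 7.07, 6.93 and 7.11 TPM in Control, 6.39 in A2ko and 10.3 in A8ko, with 23.7 and 31.9 in C9ko. The Control libraries were nearly equal, so that every knockout library lay outside their range. The differences were -0.12 log2 units in A2ko, 0.49 in A8ko and 1.83 (SE 0.13) in C9ko. TAGLN overlaps PCSK7 on the other strand, which was at 8.61 to 12.6 TPM, and the use of strand in counting is not given in the sources used here.

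TAGLN2 (ENSG00000158710, protein coding, chromosome 1, 159918107 to 159925732) is the family member common in epithelia and blood cells. It measured 612, 594 and 613 TPM in Control, 388 in A2ko and 734 in A8ko, with 694 and 764 in C9ko. A2ko stood well below the other 6 libraries, at -0.64 log2 units. A8ko was at 0.27 and C9ko at 0.26 (SE 0.07), and less the median shift over all tested genes these were 0.18 and 0.15. TAGLN was 1.15% ± 0.00478 (SD, n = 3) of the summed transgelins in Control, 1.62% in A2ko and 1.39% in A8ko, with 3.30% and 4.01% in C9ko. In A2ko the higher share came with a lower TAGLN2 level, and in C9ko with a higher TAGLN level.

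CNN2 (ENSG00000064666, protein coding, chromosome 19, 1026581 to 1039068), the calponin of non-muscle cells, measured 313, 305 and 306 TPM in Control, 409 in A2ko and 396 in A8ko, with 423 and 454 in C9ko. All knockout libraries were above Control and their values were close together. The differences were 0.41 log2 units in A2ko, 0.36 in A8ko and 0.51 (SE 0.06) in C9ko. CNN3, the other calponin gene found here at a sizeable level, measured 47.1 to 51.6 TPM in Control and 65.0 to 78.8 in the knockouts, and CNN2 kept 85.1% to 86.6% of their sum in all 7 libraries.

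Caldesmon binds actin, tropomyosin and myosin and slows the motor. CALD1 (ENSG00000122786, protein coding, chromosome 7, 134744252 to 134970728) measured 39.1, 35.5 and 36.5 TPM in Control, 72.5 in A2ko and 39.3 in A8ko, with 59.8 and 65.5 in C9ko. A2ko was highest, C9ko came next, and A8ko exceeded the first Control library only in the decimals. The differences were 0.95 log2 units in A2ko and 0.74 (SE 0.07) in C9ko. That of A8ko was 0.08 as deposited and -0.02 after median-of-ratios scaling, within the Control range, so it has no settled direction.

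The alpha-actinins cross-link actin filaments and link them to integrin and cadherin adhesions. ACTN1 (ENSG00000072110, protein coding, chromosome 14, 68874143 to 68979440) measured 109, 98.3 and 110 TPM in Control, 180 in A2ko and 192 in A8ko, with 203 and 211 in C9ko. The 4 knockout libraries lay close to each other and none came near Control. The differences were 0.77 log2 units in A2ko, 0.86 in A8ko and 0.96 (SE 0.07) in C9ko.

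ACTN4 (ENSG00000130402, protein coding, chromosome 19, 38647649 to 38731583), its close paralog, measured 175, 164 and 204 TPM in Control, 201 in A2ko and 152 in A8ko, with 159 and 166 in C9ko. It was the one member not above Control in C9ko. The differences were 0.16 log2 units in A2ko, within the Control range, -0.24 in A8ko and -0.15 (SE 0.10) in C9ko, where 1 library lay within the Control range. Under median-of-ratios scaling both C9ko libraries lay below Control, at -0.28, without being called. The ratio of ACTN1 to ACTN4 was 0.587 ± 0.0441 (SD, n = 3) in Control, 0.897 in A2ko and 1.26 in A8ko, with 1.28 and 1.27 in C9ko. ACTN4 was thus the more abundant of the pair in Control and in A2ko, and ACTN1 in A8ko and C9ko.

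MYL9 (ENSG00000101335, protein coding, chromosome 20, 36541484 to 36551447) is a regulatory light chain of myosin II, typical of smooth muscle and of contractile non-muscle cells. It measured 11.3, 13.8 and 12.1 TPM in Control, 65.4 in A2ko and 6.17 in A8ko, with 32.4 and 31.0 in C9ko. No 2 groups overlapped: A2ko was highest, then C9ko, Control and A8ko. The differences were 2.31 log2 units in A2ko, -0.90 in A8ko and 1.29 (SE 0.09) in C9ko, and all 3 kept their direction under median-of-ratios scaling or without mitochondrial genes.

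The other regulatory light chains, MYL12A and MYL12B, were far more abundant. MYL9 took 1.28% ± 0.167 (SD, n = 3) of the sum of the 3 genes in Control, 5.12% in A2ko and 0.594% in A8ko, with 2.62% and 2.68% in C9ko. MYL12A and MYL12B are nearly identical, so the division between them is uncertain, but the MYL9 share uses only their sum. The myosin heavy chains MYH10 and MYH14, which were looked up with MYH9 as the other part of the motor, also stood higher in A2ko and lower in A8ko. MYH10 measured 6.42 to 7.64 TPM in Control, 13.7 in A2ko and 1.54 in A8ko, with 8.20 and 7.35 in C9ko. MYH14 measured 1.26 to 1.87 TPM in Control, 8.07 in A2ko and 0.205 in A8ko, with 0.489 and 0.589 in C9ko. The main heavy chain gene, MYH9, was instead higher in all 4 knockout libraries, at 167 to 206 TPM against 127 to 139 in Control.

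**Figure D3:**
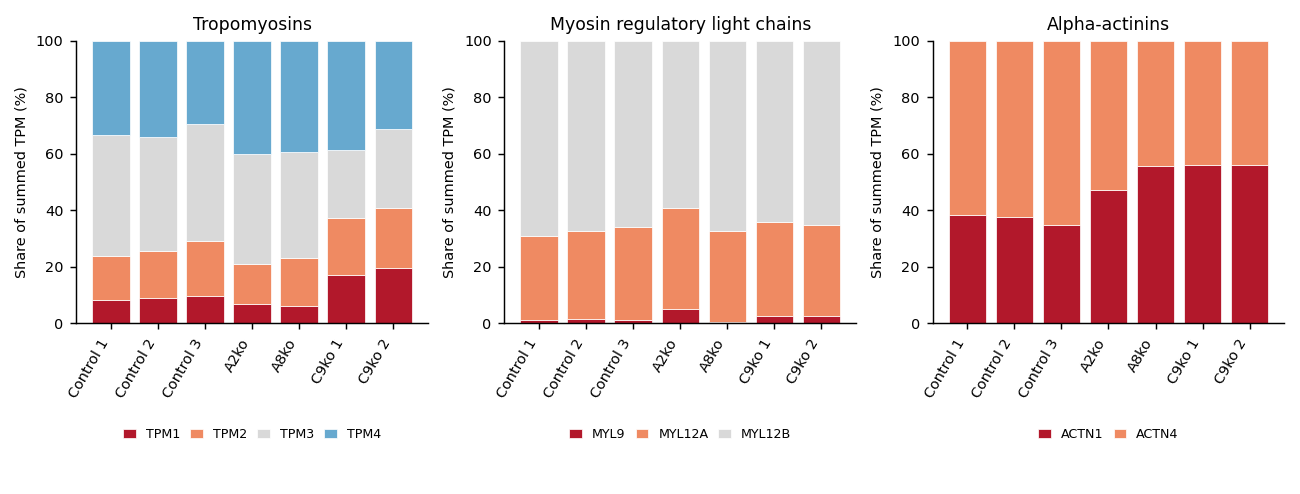
Share of each gene in the summed level of its class, in percent, for each of the 7 distinct libraries. The TPM1 part is 17.2% and 19.6% of tropomyosins in C9ko against 8.20% to 9.60% in Control, MYL9 is 5.12% of regulatory light chains in A2ko, and ACTN1 exceeds ACTN4 in A8ko and C9ko.

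Across the 7 libraries some members varied together. The libraries share their groups and are few, so the correlations of log2(TPM + 1) only describe them. The closest pair was ACTN1 and CNN2, with Pearson's r of 0.984, followed by TPM2 and TAGLN (0.962), TPM1 and TAGLN (0.953), TPM1 and TPM2 (0.951), and MYL9 and CALD1 (0.904). One group of 3 (TPM1, TPM2 and TAGLN) was thus high mainly in C9ko, the pair of MYL9 and CALD1 was highest in A2ko and next in C9ko, and ACTN1 with CNN2 was higher in every knockout. ACTN4 went its own way, with r from -0.707 against TAGLN2 to 0.361 against MYL9.

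For the 3 members with the widest range of group means, the other genes with the most similar course were looked up among the 8739 genes with a mean of at least 10 TPM. For MYL9 they were GBP2 (r = 0.983 over 7 libraries), MX2 (0.982) and IFIT1 (0.979). GBP2 measured 14.1 to 16.0 TPM in Control, 36.8 in A2ko and 11.02 in A8ko, with 24.5 and 27.0 in C9ko, the same order of groups as MYL9 over a smaller span. For TPM1 they were H2BC12 (0.994), DYNLT2B (0.993) and RBM15B (0.992). For TAGLN they were PRKAR2A (0.997), CAPN7 (0.997) and UBP1 (0.995), and 270 genes reached an r of 0.95 with it. PRKAR2A, CAPN7, UBP1, DYNLT2B and RBM15B all lie on chromosome 3.

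The promoters of the members were searched for the CArG box, the sequence bound by SRF, because ACTN1 and CNN2 were higher together in every knockout. RefSeq promoter windows of 300 bases (GRCh38.p14) were at hand for 8 of the 10 genes, 20 windows in all, and not for TAGLN and MYL9. The CArG box is CC, then 6 letters that are each A or T, then GG, and its search covers both strands since the pattern is its own complement. An exact box was found in a window of ACTN1, CNN2 and TPM4, that is in 3 of 8 genes. Of the 27305 genes whose windows were searched, 1.60% had one. The members have more windows per gene than genes at large, and per window the box was in 3 of 20 for the members and in 1.29% of all 35116. The stretches of the ACTN1 and CNN2 windows that precede the first exon base annotated by GENCODE are shown because both genes moved together, with the CArG box in capitals. The ACTN1 stretch (chr14:68977655-68977816, minus strand) belongs to 1 of its 4 annotated starts. It lies inside the gene span given above and not upstream of the whole gene, whereas the CNN2 stretch ends where that gene begins.
ACTN1: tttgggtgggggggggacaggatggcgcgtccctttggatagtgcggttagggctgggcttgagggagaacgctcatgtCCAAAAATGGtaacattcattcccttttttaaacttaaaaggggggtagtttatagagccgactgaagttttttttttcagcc
CNN2 (chr19:1026358-1026580, plus strand): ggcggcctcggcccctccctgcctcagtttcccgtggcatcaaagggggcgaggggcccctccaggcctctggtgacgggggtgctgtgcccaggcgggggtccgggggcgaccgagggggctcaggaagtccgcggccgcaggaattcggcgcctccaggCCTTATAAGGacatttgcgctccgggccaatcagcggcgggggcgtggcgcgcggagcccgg

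Distances are from the first base of the box to the RefSeq start of that window, which lies downstream of the end of the printed stretch and differs from the GENCODE gene start given above. The box lies 171 bases before the ACTN1 start and 89 bases before the CNN2 start, and the TPM4 box, CCAAATAAGG, lies 173 bases before one of its 3 annotated starts. None of that TPM4 window precedes the first exon base annotated by GENCODE, so no stretch of it is shown. The 3 genes with an exact box are among the 4 that were above Control in every knockout library on the deposited scale. CALD1, the other of those 4 and barely above Control in A8ko, had no exact box in its 4 windows. Because that pattern prompted the search, nothing is read from this overlap. With up to 1 mismatch among the A and T letters, 5 of the 8 genes and 9.88% of all genes had a match. The genes added were CALD1 and ACTN4, of which ACTN4 was not above the Control range in any knockout on the deposited scale. A match describes letters in a window and says nothing of binding in these cells.

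Positions along the chromosomes were considered because stretches of neighbouring genes differ between these libraries. For each member, the tested genes within 2 Mb to each side were taken from GENCODE release 29 on GRCh38, and the submitters' processing notes name hg38 as the build. Around TPM2 on chromosome 9, 45 of 52 neighbours were higher in C9ko and their median difference was 0.51 log2 units, against 0.95 for TPM2 itself. Around TPM1 on chromosome 15, only 5 of 27 neighbours were higher in A8ko and their median was -0.25, close to the -0.22 of TPM1. TPM1 in A8ko differed from Control by no more than the median of the genes around it. In A2ko, however, 20 of those 27 neighbours were higher, with a median of 0.27, while TPM1 was lower, at -0.36. The part of these stretches in the values of TPM1 and TPM2 was not tested.

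Apart from TPM2 in C9ko and TPM1 in A8ko, the medians of neighbours lay between -0.01 and 0.27. In C9ko the median of neighbours was 0.01 log2 units around TPM1, 0.11 around TAGLN and 0.14 around MYL9, where the genes themselves were at 1.74, 1.83 and 1.29. Around MYL9 it was 0.08 in A2ko and 0.21 in A8ko, where MYL9 was at 2.31 and -0.90. Around ACTN1 it came to 0.12 for A2ko, 0.07 for A8ko and 0.13 for C9ko, near the shift of all tested genes.

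**Figure D4:**
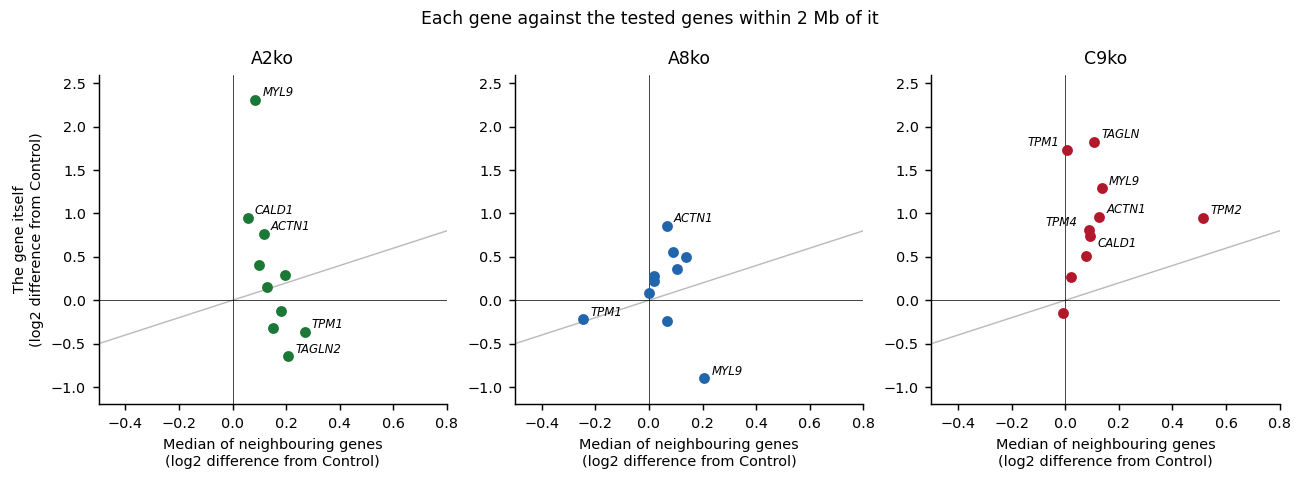
Difference of each of the 10 genes from Control (vertical axis, log2 units) against the median difference of the tested genes within 2 Mb of it (horizontal axis, log2 units), with 1 panel per knockout and a grey line where both are equal. TPM2 in C9ko and TPM1 in A8ko stand apart from the other points in the difference of their neighbours, at 0.51 and -0.25.

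Other genes of the actin cytoskeleton were taken from a list of 68, of which 59 passed the filter. In C9ko, limma called 37 of the 59 at an adjusted p-value under 0.05, 34 higher and 3 lower (MYH14, MYLK and SYNPO). Of all tested genes 29.5% were called, 22.0% higher and 7.42% lower. The median difference in C9ko was 0.33 log2 units against 0.11 for all tested genes, and it was 0.16 in A2ko and 0.15 in A8ko. After median-of-ratios scaling the called genes were 26 higher and 4 lower of the 59, against 2626 higher and 2187 lower of all 17100 tested. The list was written from general knowledge and chosen with earlier results known.

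All 4 tested actin genes were called higher in C9ko, against 22.0% of all tested genes. ACTB, the main cytoplasmic actin, measured 4577, 4278 and 4998 TPM in Control, 5055 in A2ko and 6542 in A8ko, with 6629 and 7077 in C9ko. Its C9ko difference was 0.57 log2 units (SE 0.10, limma adjusted p 0.00718), not called without the second C9ko library (adjusted p 0.0541). ACTG1, the second cytoplasmic actin, rose by 0.34 (SE 0.10, limma adjusted p 0.0399), a call that was lost after median-of-ratios scaling (adjusted p 0.148) and on leaving out either C9ko library or Control 1 or 2 (up to 0.149). ACTB has many processed pseudogenes, so its level depends on how reads were assigned. Of 35 tested genes within 2 Mb of ACTB on chromosome 7, 31 were higher in C9ko, with a median difference of 0.21. The smooth muscle actins stayed near the lower limit of the data: ACTA2 rose by 0.71 (limma adjusted p 0.00508), its Control mean being 1.49 ± 0.0540 TPM (SD, n = 3) and its C9ko values 3.03 and 3.12 TPM, and ACTG2 by 0.71 (limma adjusted p 0.0304), its Control mean being 0.468 ± 0.187 TPM (SD, n = 3) and its C9ko values 1.23 and 1.54 TPM. The ACTG2 call was lost on leaving out either C9ko library, Control 1 or Control 3, with adjusted p up to 0.154.

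Of the 7 non-muscle myosin II genes, 4 were called higher and 1 lower, against 22.0% and 7.42% of all tested genes. In C9ko MYH9 rose by 0.61 (SE 0.07, limma adjusted p 0.000860) and the essential light chain MYL6 by 0.33 (limma adjusted p 0.0253), while MYH14 fell by 0.72 (limma adjusted p 0.0152). Of 48 tested genes within 2 Mb of MYH9, 41 were higher in C9ko, with a median difference of 0.22. Without the first C9ko library MYH14 was not called (limma adjusted p 0.0688), and MYL6 was called only without the second (0.0314 there, up to 0.145 otherwise). MYL12B rose by 0.23 (limma adjusted p 0.0497), a call that did not survive the removal of any 1 library, with adjusted p from 0.0511 to 0.218. Of 4 tested paralogs and tropomyosin caps, 2 were called higher and none lower, against the same shares. TMOD1, which caps the slow-growing end of the filament, rose by 1.19 (SE 0.10, limma adjusted p 0.000269). TMOD1 measured 1.80 to 1.94 TPM in Control, 4.53 in A2ko and 4.77 in A8ko, with 5.55 and 5.47 in C9ko. CNN3 rose by 0.62 (limma adjusted p 0.000931) and TPM3 was not called, at 0.03 (limma adjusted p 0.835).

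In contractility signalling, 9 of 16 genes were called higher and 1 lower, against 22.0% and 7.42% of all tested genes. RHOA, the small GTPase that switches on contraction, measured 262, 253 and 231 TPM in Control, 250 in A2ko and 258 in A8ko, with 525 and 510 in C9ko, a rise of 1.06 log2 units (SE 0.07, limma adjusted p 0.000133). Its neighbours within 2 Mb on chromosome 3 had a median difference of 0.89 in C9ko, with 80 of 82 higher. The part of that stretch in the value of RHOA was not tested. The formin DIAPH3 rose by 0.81 (limma adjusted p 0.000942), whereas cofilin (CFL1), which severs filaments, was not called at 0.21 (limma adjusted p 0.0970).

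Among cross-linkers and bundlers, 4 of 8 genes were called higher and 1 lower, against 22.0% and 7.42% of all tested genes. LCP1 rose in C9ko by 0.80 (limma adjusted p 0.00294) and FLNA by 0.31 (limma adjusted p 0.0377), a call that was lost on leaving out either C9ko library or Control 1 or 2 (up to 0.136) and after median-of-ratios scaling (0.190). Fascin (FSCN1), which bundles filaments in protrusions, measured 468 to 512 TPM in Control, 318 in A2ko and 870 in A8ko, with 740 and 772 in C9ko. It rose in C9ko by 0.61 (limma adjusted p 0.00100), and in A2ko it lay below all Control libraries, as did TPM1, TPM2, TAGLN and TAGLN2. Of 36 neighbours of FSCN1 within 2 Mb on chromosome 7, 33 were higher in A8ko and 32 in C9ko. Their median differences were 0.25 and 0.22. The part of such stretches in the values of FSCN1, ACTB and MYH9 was not tested.

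Of the 14 genes for focal adhesion and stress fibre adaptors, 8 were called higher in C9ko and none lower, against 22.0% and 7.42% of all tested genes. PDLIM7 rose by 0.91 (log2, SE 0.07, limma adjusted p 0.000185), zyxin (ZYX), which gathers at strained stress fibres, by 0.73 (SE 0.06, limma adjusted p 0.000297), and paxillin (PXN) by 0.41 (limma adjusted p 0.00379). PDLIM1, the most abundant adaptor on the list, was not called at -0.04 (limma adjusted p 0.746). ZYX measured 110 to 118 TPM in Control and 144 to 192 in the knockouts.

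Of 6 tested genes for SRF and its cofactors, 3 were called higher in C9ko and none lower, against 22.0% and 7.42% of all tested genes. SRF measured 42.6, 41.1 and 44.4 TPM in Control, 23.1 in A2ko and 50.2 in A8ko, with 53.9 and 55.8 in C9ko. It rose in C9ko by 0.35 (SE 0.06, limma adjusted p 0.00724) and was well below Control in A2ko, at -0.86. FHL2 rose in C9ko by 0.73 (limma adjusted p 0.00101) and CSRP1 was not called at -0.12 (limma adjusted p 0.296). MYOCD, the smooth muscle cofactor, was listed at 0 in all libraries but A8ko.

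**Figure D5:**
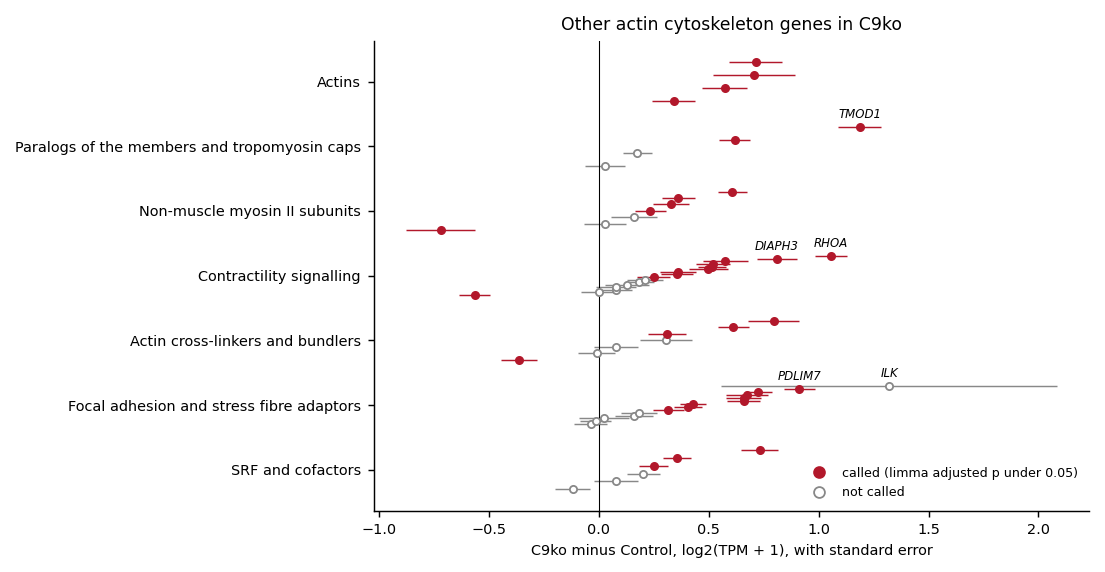
Difference between C9ko and Control on the log2(TPM + 1) scale for 58 of the 59 tested genes of the actin cytoskeleton list, by group, with the limma standard error as a bar and filled points for genes called at an adjusted p-value under 0.05. TMOD1 at 1.19 and RHOA at 1.06 are the called genes shown farthest to the right, and ILK, not called, has the widest bar.

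In A2ko and A8ko, where a test across replicates could not be had, few listed genes lay outside the Control range with a difference of 1 log2 unit or more from its mean. In A2ko these were MYH14 and SYNPO, both higher (2 of 59, against 5.07% of all tested genes). In A8ko they were TMOD1 and LCP1, higher, and MYH10 and MYH14, lower (4 of 59, against 4.73%). Those counts are near the background. These 5 genes, and MYLK, are named because the counts are small, and MYH10, SYNPO and MYLK were chosen after their values were seen.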

How the data were processed

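RNA from 9 CAL27 samples was sequenced by the submitters as polyA RNA in libraries made by the dUTP method, per the labels' protocols. The deposited values are TPM per Ensembl gene, made by the authors, with 1 file per sample. The submitters' processing notes name hg38 as the build, and the aligner, quantifier, annotation release and use of strand are not given in the sources used here. TPM keeps no depth, so library depth cannot be stated and intervals from counts were not computed. The labels name no batch.

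Files with identical values within a group were counted once. Of the 78894 identifiers, 61463 had a symbol, and 57342 had a position in GENCODE release 29. Values were analysed as log2(TPM + 1), with a minimum of 1 TPM in at least 2 distinct libraries (17100 genes). Fold differences on that scale understate the change of low genes, and folds without a log are ratios of mean TPM. C9ko was compared with Control by limma 3.58.1 in R 4.3.3, with all 4 groups in the fit, eBayes with trend and Benjamini-Hochberg adjustment over all tested genes, called under 0.05. The fit was tested on simulated data. A2ko and A8ko have 1 distinct library each, so values were set against the Control range. Genes were named by a rule: all 10 members, in each part of the list the 2 called genes with the largest C9ko difference and the 2 with the highest mean, and for the 3 members of widest range the 3 genes most correlated over the libraries. The values of 1 gene picked by that rule are not reported here. Promoter windows came from RefSeq. The labels do not say that samples of a group were separate cultures, so p-values measure only the spread between these samples, which may be technical. Members and lists were chosen with earlier results of these data known. Alternatives were another pseudocount, other filters, scalings and fits, and leaving out each library.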

Additional observations from a re-analysis of the deposited data

Results flagged for a closer look

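For 5 of the 10 genes, some knockouts lay above and others below every Control library. The share of all tested genes with such opposite directions was not computed, so nothing is read from this count. Lying outside the Control range by any amount was common, at 76.7% of all tested genes in A2ko, 73.3% in A8ko and 57.5% in C9ko. No test of these contrasts was made: A2ko and A8ko each come down to a single distinct library, and all comparisons share the Control libraries. MYL9 was higher in A2ko, at 2.31 log2 units, and in C9ko, at 1.29, and lower in A8ko, at -0.90. TPM1 was higher in C9ko, at 1.74, and lower in A2ko, at -0.36, and in A8ko, at -0.22. TAGLN was higher in A8ko, at 0.49, and in C9ko, at 1.83, and lower in A2ko, at -0.12. TAGLN2 was higher in A8ko, at 0.27, and in C9ko, at 0.26, and lower in A2ko, at -0.64. TPM2 was higher in A8ko, at 0.22, and in C9ko, at 0.95, and lower in A2ko, at -0.32. After scaling by the median of ratios, TPM2 in A8ko fell within the Control range, while the other directions of these 5 genes stayed as given.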

How the results depend on the processing

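The number of genes called in C9ko was 5038. It was 8166 when all 9 files were counted as separate libraries and 3248 with the replicate block. Leaving out 1 library gave 3301 to 4174 genes, the lowest without the second C9ko library. Leaving out a C9ko library leaves 1, as in A2ko and A8ko, so that replicates remain only in Control. The C9ko library is then assumed to vary like Control. Of the 10 members, 7 to 9 were called under every alternative. ACTN4 was never called, TAGLN2 was not called under 9 of the 14 alternatives, and TPM4 was not called with no filter on low values, where 7 members were called. Other actin cytoskeleton genes called were 37, and 22 with the replicate block (21 higher and 1 lower). Leaving out 1 library gave 25 to 32. Of the 21 called genes that the naming rule picked from that list, 12 stayed called under every alternative that tested them, and 14 when any 1 library was left out. Control and C9ko share replicate numbers, but deviations of same-numbered libraries correlated at -0.0529 and -0.0124, so the numbers were taken as names only. With 2 C9ko libraries the deviations mirror each other, so this check cannot show whether same-numbered libraries were handled together. The replicate block was fitted to Control and C9ko only and leaves little from which to estimate the spread. For single members, CALD1 in A8ko was the one difference whose sign changed, to -0.02 after scaling by the median of ratios. TPM values carry no depth, so the precision of low genes such as TAGLN cannot be given from counts.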

Other observations

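ILK, an adhesion kinase on the list, lay at 5.83 to 7.05 TPM in Control, 8.46 in A2ko and 6.38 in A8ko, but at 51.9 and 5.40 TPM in the 2 C9ko libraries, and was not called (limma adjusted p 0.237). It was singled out after its values were seen. The filamin FLNC, below the filter on low values, lay at 0.186 to 0.309 TPM in Control, 2.58 in A2ko and 0.505 in A8ko, with 0.809 and 0.868 in C9ko. CDH5, the endothelial cadherin, ranged from 3.21 to 4.27 TPM in Control, with 12.6 in A2ko and 8.15 in A8ko, with 21.9 and 29.9 in C9ko. It makes up nearly all of the sum of endothelial markers given above.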
